A study of Mus musculus with 8 samples.

Results

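The 7 genes described here, Ptgs2, Ccn1, Ccn2, Egr1, Fos, Fosl1 and Thbs1, were grouped as serum-response transcripts or targets of YAP. They were read from the gene names of 4 deposited lists of N6-methyladenosine (m6A) sites, and 6 of the 7 had at least 1 listed site. Fosl1 had no row in any list and has no value below. These 6 genes stand among 10609 genes with a listed site, and they hold 94 of the 85953 listed sites. The genes were selected on measured values of these same libraries, the change of gene coverage, of m6A level and of site listing between siVirma and siNC. Their values in that contrast are therefore given as a description, with no test.

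GLORI treats RNA so that an unmethylated adenosine is read as guanosine while a methylated one is still read as adenosine, and the level of a site is its A reads divided by its A and G reads. The series has 8 mouse libraries in 4 groups of 2. TBLC, a cell type whose abbreviation the labels do not spell out, were grown in MYCP medium and treated with siRNA, either a control (siNC) or one that targets Virma (siVirma). EPSC, likewise not spelled out, carried a dCas13b-FTO targeting system, guided by sgCtrl or by sgGata6, and each EPSC group was deposited as 1 pooled value. Virma, which holds the m6A writer complex together, had a coverage of 1.03 and 1.02 times the median gene in siNC replicates 1 and 2, and of 0.518 and 0.569 in siVirma. The labels do not say whether replicates were separate cultures, so p-values measure the spread between libraries, which may be technical. The lists hold 4367999 to 4764955 A and G reads per siNC library and 2655963 to 3423268 per siVirma library, over sites with at least 15 reads, 5 A reads and a level of 0.1.

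Serum and growth factors switch on immediate early genes within minutes, many of them through serum response factor (SRF) and its partners of the ternary complex and myocardin-related families. YAP enters the nucleus when Hippo signalling is low or when cells are spread and under tension, and acts through TEAD proteins. Both routes share targets such as Ccn1 and Ccn2. Many of these transcripts are short-lived, and m6A is known as a mark that can speed the decay of a transcript through YTH domain reader proteins.

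The start of 3 of the 7 genes was found in the RefSeq promoter table of assembly GRCm38.p6, and the 250 bases before each start are printed to show which letters known to be bound by SRF, TEAD or AP-1 factors they hold. Capitals mark every match, on either strand, to the CArG box (SRF), GGAATG (TEAD), TGANTCA (AP-1), TGACGTCA and its first part TGACG (CREB and ATF factors) and TATAAA (the TATA box). Ccn1 stands at chr3:145649986-145650235 on the minus strand, Fos at chr12:85473640-85473889 on the plus strand and Ptgs2 at chr1:150099781-150100030 on the plus strand.
Ccn1: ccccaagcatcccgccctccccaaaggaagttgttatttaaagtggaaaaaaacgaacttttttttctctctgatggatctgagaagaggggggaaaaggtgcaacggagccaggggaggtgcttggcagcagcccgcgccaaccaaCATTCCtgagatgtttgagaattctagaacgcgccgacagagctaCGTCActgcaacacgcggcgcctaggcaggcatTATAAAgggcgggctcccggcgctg
Fos: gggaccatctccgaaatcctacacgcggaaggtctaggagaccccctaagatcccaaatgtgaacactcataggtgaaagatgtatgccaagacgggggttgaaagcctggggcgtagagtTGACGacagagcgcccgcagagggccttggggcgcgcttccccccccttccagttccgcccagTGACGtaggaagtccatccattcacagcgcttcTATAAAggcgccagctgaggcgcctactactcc
Ptgs2: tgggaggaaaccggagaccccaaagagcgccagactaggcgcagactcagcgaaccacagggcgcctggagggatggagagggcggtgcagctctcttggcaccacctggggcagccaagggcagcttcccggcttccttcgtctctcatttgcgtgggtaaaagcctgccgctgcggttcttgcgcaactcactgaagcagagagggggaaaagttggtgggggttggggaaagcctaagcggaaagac
In Ccn1 the TEAD letters were found as CATTCC, on the opposite strand, 103 to 98 bases before the start. The same window held TGACG on the opposite strand 58 to 54 bases before the start and TATAAA 25 to 20 bases before it. The Fos window held TGACG from 129 to 125 and from 66 to 62 bases before the start, and TATAAA from 33 to 28. None of the 6 motifs was in the Ptgs2 window, and the CArG box and TGANTCA were in none of the 3 windows, which says only that these letters are not in these bases. Among 32851 promoters of this length, GGAATG was in 12.6%, TGACG in 17.8%, TATAAA in 12.4%, TGANTCA in 6.75%, TGACGTCA in 1.55% and the CArG box in 1.47%.

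The first quantity is gene coverage, a value the lists give once per gene and library. Its name and its values are those of a read depth, but its computation is not described there. It was divided by the value of the median gene of its library, over the 6787 genes that all 4 TBLC lists hold, so that it is used to compare libraries and not genes. The coverage changes below are log2 differences of siVirma minus siNC after that centring, which removed a shift of 0.17 towards siVirma. In bulk RNA, fewer cells that express a gene and less RNA per cell cannot be told apart.

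Coverage was lower in siVirma for Ptgs2, Ccn1, Ccn2 and Thbs1, and not for Egr1 and Fos. Ptgs2 encodes cyclooxygenase-2, the inducible enzyme of prostaglandin synthesis. Its coverage was 2.43 and 2.4 times the median gene in siNC replicates 1 and 2, and 1.07 and 1.09 times in siVirma. Both siVirma libraries lay far below both siNC libraries, and the fold change was 0.448 (log2 change -1.16). This was the lowest coverage change among all 6787 genes. The A and G reads at its 2 sites listed in all 4 libraries, not scaled for library depth, were 359 and 376 in siNC and 151 in each siVirma library. Scaled by edgeR's TMM factors, their log2 change was -1.53.

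Ccn1 and Ccn2 encode matricellular proteins of the CCN family, which bind integrins and growth factors outside the cell. Ccn1 coverage was 1.66 and 1.6 times the median gene in siNC and 1.05 and 1.01 in siVirma, a fold change of 0.631 (log2 change -0.66), ranked 10 from the lowest. Ccn2 coverage was 1.79 and 1.8 in siNC and 1.43 in both siVirma libraries, a fold change of 0.798 (log2 change -0.33). The groups did not overlap for either gene. Without centring on the median gene, the log2 change of Ccn2 was -0.16 and that of Ccn1 -0.50.

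Thbs1 encodes thrombospondin 1, a matrix glycoprotein that can activate latent TGF-beta. Its coverage was 4.65 and 4.47 times the median gene in siNC and 3.36 and 3.22 in siVirma. The groups were apart, with a fold change of 0.721 (log2 change -0.47) and ranked 49 from the lowest.

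Egr1 and Fos encode immediate early transcription factors, a zinc finger protein and a subunit of AP-1. Egr1 coverage was 1.12 and 1.17 times the median gene in siNC and 1.26 and 1.17 in siVirma, so the groups overlapped and the log2 change was 0.08. Fos had a coverage of 1.98 and 2.11 in siNC and of 2.34 and 2.22 in siVirma. Its siVirma values lay just above the siNC values, with a fold change of 1.11 (log2 change 0.16). Over all genes the median change was -0.04, the quartiles were -0.13 and 0.07, and the 1st and 99th percentiles were -0.42 and 0.46. Ptgs2, Ccn1 and Thbs1 lay below that 1st percentile, and the median over the 6 members was -0.40. In 4 of the 6 members both siVirma libraries were below both siNC libraries, as in 41.3% of all genes, and in 1 of the 6 both were above, as in 26.2%. Since the members were picked on this contrast, nothing is read from those counts. Each member kept the direction of its change in every alternative that gave it a value, from 0.03 to 0.25 for Egr1. Ccn2 had no value on A and G reads. The alternatives reuse the libraries that the members were picked on, so they describe these changes and do not test them.

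**Figure D1:**
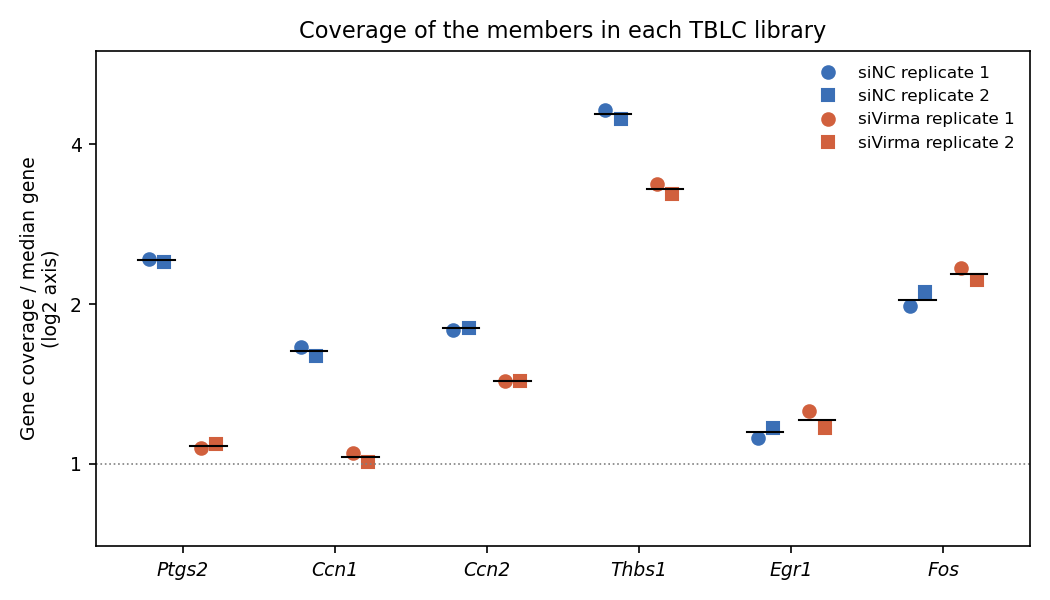
Gene coverage of the 6 measured members in each TBLC library, as a multiple of the median gene, on a log2 axis. Points are single libraries, short lines the mean of 2, and the dotted line the median gene. The siVirma points of Ptgs2, Ccn1, Ccn2 and Thbs1 sit below their siNC points, those of Fos sit just above and those of Egr1 overlap.

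The second quantity is how many sites a transcript keeps in the lists. Of 64 member sites in both siNC lists, 25 were in both siVirma lists, 12 in only 1 and 27 (42.2%) in neither. Over all listed sites, with or without a gene name, 33.1% of 49554 in both siNC lists were in neither siVirma list. The difference between members was larger than that between the members and all sites. Ptgs2 had 12 and 15 listed sites in siNC but 3 and 2 in siVirma, and 7 of its 10 shared sites (70%) were in neither siVirma list. Ccn1 had 15 and 14 sites in siNC and 3 and 4 in siVirma, and 6 of 12 were in neither. Thbs1 had 18 in each siNC library and 8 and 9 in siVirma, and 9 of 17 were in neither. Fos went from 14 and 16 sites to 7 in each siVirma library, with 4 of 12 in neither. Egr1 kept most of its sites, with 14 in each siNC library and 10 and 11 in siVirma. Only 1 of its 12 shared sites (8.33%) was in neither.

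Site loss followed the level a site had in siNC, in the members as in the whole lists. Of member sites with a mean siNC level under 0.3, 23 of 30 (76.7%) were in neither siVirma list, against 71.2% over all sites. From 0.3 to 0.5 it was 4 of 10 (40%) against 26.7%. At 0.5 and above it was 0 of 24, against 4.62%. The members differed in how many high sites they had. Egr1 had a median siNC level of 0.541 over its shared sites, Ptgs2 0.225 and Ccn1 0.25. A site can leave a list through a lower level or fewer reads, and their parts were not tested. With reads scaled by the gene's coverage and the level unchanged, 24 of the 27 member sites in neither list would reach 15 reads and 5 A reads. For Ptgs2 it was 5 of 7. Over all sites it was 78.7%, where sites of genes without coverage in all 4 libraries count as not reaching them.

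Ccn2 went the other way in number. It had 2 and 1 listed sites in siNC and 4 in each siVirma library, all within 100 bases on chr10:24473454-24473553. Its site at chr10:24473454 had a level of 0.272 and 0.355 in siNC and 0.1 in siVirma replicate 2, and was not listed in siVirma replicate 1. The site chr10:24473553 had 0.394 in siNC replicate 1 and 0.103 and 0.104 in siVirma, and was not listed in siNC replicate 2. The positions chr10:24473526, chr10:24473532 and chr10:24473541, were listed in siVirma alone. Of these, chr10:24473532 had 18 of 60 and 16 of 43 A reads, levels of 0.3 and 0.372. Thbs1 had 2 sites listed in siVirma alone, chr2:117942374 at 0.105 and 0.136 and chr2:117943672 at 0.119 in 1 library. These were 5 of the 94 member sites, where 7200 of all 85953 sites were listed in siVirma alone. The lists do not give the reads at positions that were not listed, so the siNC level of these 5 sites is not known here.

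**Figure D2:**
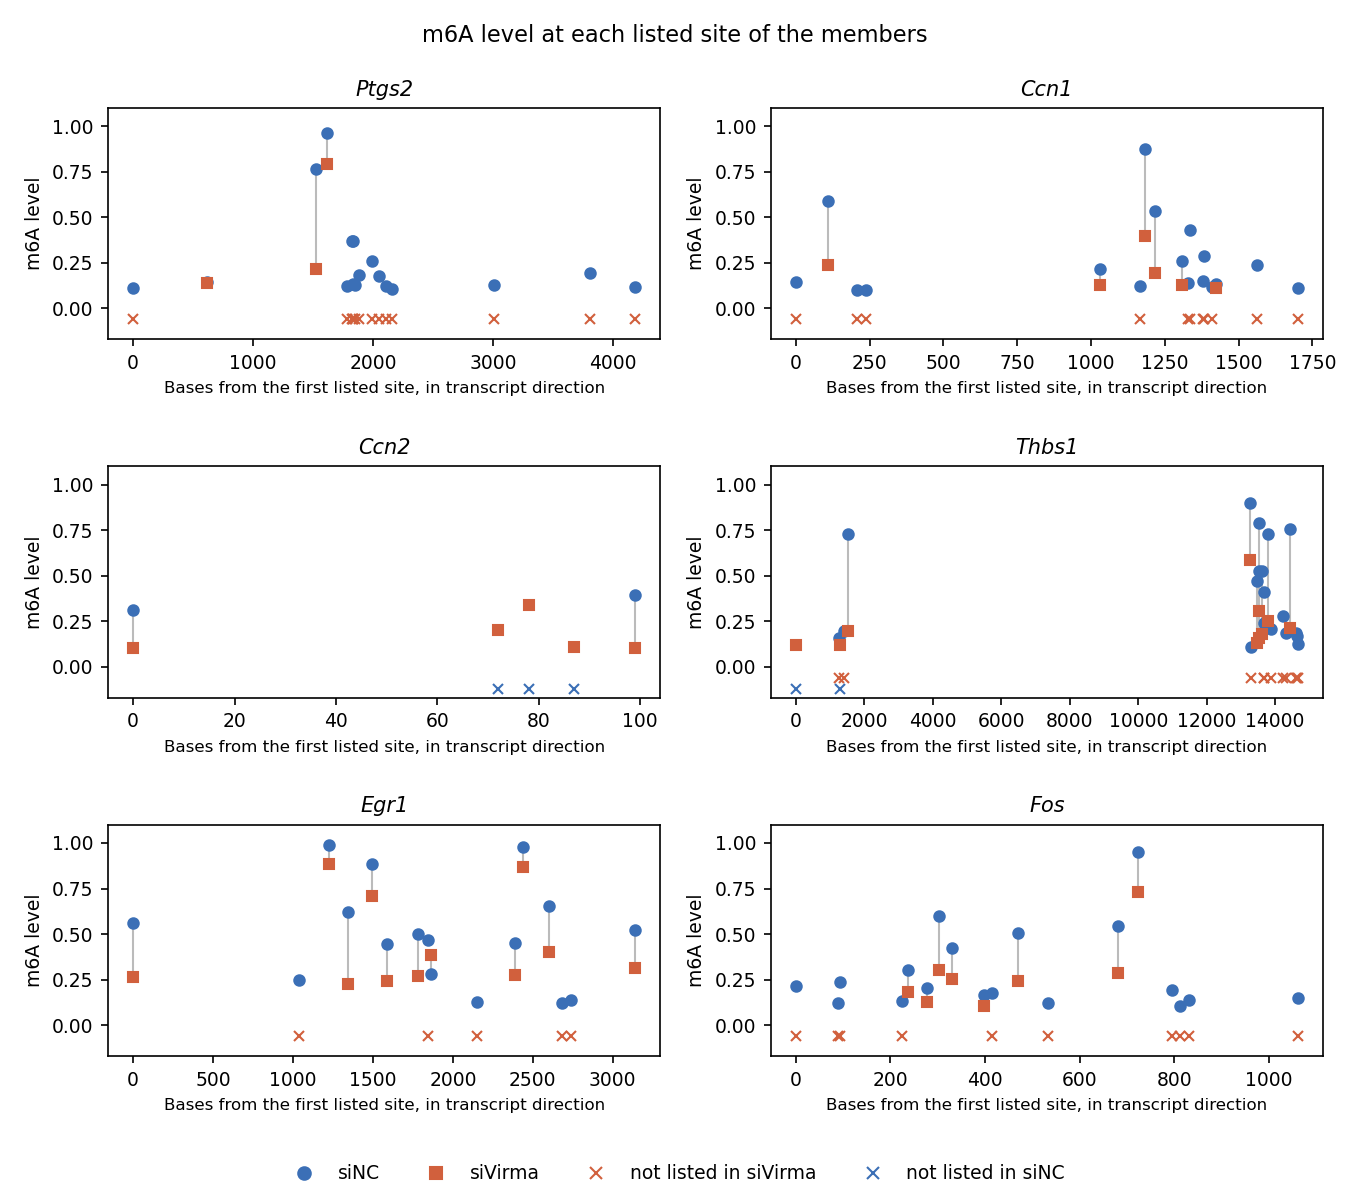
m6A level (A reads over A and G reads, 0 to 1) at every listed site of each member, against the distance from its first listed site in bases along the transcript's strand of the genome. Circles are siNC and squares siVirma, each the mean of the libraries that list the site, grey lines join the 2 groups, and crosses at the bottom of a panel mark sites not listed in a group. Each circle from 0.5 up has a square below it, while most circles under 0.3 have a cross.

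The third quantity is the level at sites that stayed measurable, those listed in all 4 TBLC libraries with at least 20 reads in each, with reads summed per gene. Ptgs2 had 2 such sites and a level of 0.886 in each siNC library, and 0.556 and 0.55 in siVirma. Ccn1 had 1 site, with 0.892 and 0.853 in siNC and 0.424 and 0.368 in siVirma. Thbs1 had 6 sites, with 0.778 and 0.766 in siNC and 0.291 and 0.3 in siVirma. Egr1 had 10 sites, with 0.701 and 0.697 in siNC and 0.464 and 0.471 in siVirma. Fos had 6 sites, with 0.528 and 0.498 in siNC and 0.304 and 0.303 in siVirma. Ccn2 had none. In each of these 5 members both siVirma libraries were below both siNC libraries, as in 95.4% of 5642 genes, so this does not set the members apart.

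In siNC the order of the gene levels was Ptgs2 and Ccn1, whose libraries overlapped, then Thbs1, Egr1 and Fos. In siVirma it was Ptgs2, Egr1, Ccn1, Fos and Thbs1, where the 4 values of Fos and Thbs1 lay between 0.291 and 0.304. Thbs1 thus kept 38.3% of its siNC level, Ccn1 45.4%, Fos 59.2%, Ptgs2 62.4% and Egr1 66.9%. The median of 5642 genes was 44.9%, with quartiles of 38.3% and 53.5%. On the log2 odds scale, which weighs changes near a level of 1 more, the changes were -3.36 for Ccn1, -3.02 for Thbs1, -2.64 for Ptgs2, -1.40 for Egr1 and -1.27 for Fos, with a median of -2.17 over genes. The Ccn1 value rests on 1 site. Without siVirma replicate 1 or 2, when further sites of Ccn1 enter, it was -1.43 or -2.39, and without siVirma replicate 2 that of Ptgs2 was -1.67.

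Single sites show how unequal the loss was within a transcript. In Ptgs2, chr1:149981275 had 198 of 205 and 231 of 241 A reads in siNC (levels 0.966 and 0.959) and kept 0.847 and 0.734 in siVirma. Another site upstream of it, chr1:149981182, had 0.779 and 0.756 in siNC and 0.182 and 0.246 in siVirma. The first kept 82.2% of its level and the second 27.8%. In Ccn1, chr3:145353425 went from 116 of 130 and 99 of 116 A reads to 42 of 99 and 25 of 68.

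Thbs1 had the deepest site of the set. At chr2:117956803, 447 of 586 and 406 of 541 reads were A in siNC (0.763 and 0.75), and 108 of 505 and 83 of 402 in siVirma (0.214 and 0.206). Its site chr2:117955637, at 0.878 and 0.922 in siNC, kept 0.579 and 0.592, or 65%. The other 4 measurable sites of Thbs1 kept 27.1% to 39.1%.

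Egr1 carried 2 nearly fully methylated sites. At chr18:34995857 the levels were 0.981 and 1 in siNC and 0.847 and 0.918 in siVirma, and at chr18:34997069 they were 0.986 and 0.973, then 0.877 and 0.855. These kept 89.1% and 88.4%. The lowest share in Egr1 was at chr18:34995974, with 0.577 and 0.667 in siNC, 0.189 and 0.258 in siVirma, and 36% kept. In Fos, chr12:85523388 went from 0.95 and 0.952 to 0.72 and 0.745 and kept 77%, while its other 5 sites kept 47.4% to 60.5%.

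Sites near a level of 1 kept more over the whole lists too, so each member site was set beside the median share kept by all sites in its band of siNC level, in steps of 0.1. That median was 64.6% from 0.9 to 1, 43.5% from 0.7 to 0.8 and 40% from 0.5 to 0.6. Above their band's median lay 9 of the 10 Egr1 sites and 6 of the 6 Fos sites, but 1 of the 6 Thbs1 sites, 1 of the 2 Ptgs2 sites and 0 of the 1 Ccn1 site. The conversion rate that the lists give per gene was 97.36% to 98.1% for Egr1, 97.57% to 98.61% for Fos, 97.6% to 98.69% for Ccn1, 98.37% to 98.97% for Thbs1 and 98.56% to 99.09% for Ptgs2. For every member it was higher in both siVirma libraries than in both siNC libraries, as it was for 95.8% of 6787 genes, and its part in the level changes was not tested.

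Coverage and level were then set side by side. On the log2 odds scale, Ptgs2, Ccn1 and Thbs1, the measured members with lower coverage, lay below the median gene, and Egr1 and Fos above it. For Ccn1 and Ptgs2 this rests on 1 and 2 sites, and the values above without 1 siVirma library, -1.43 and -1.67, are not below -2.17. That median is of the fit with all 4 libraries. The fits without 1 library cover other sites, and their own median is not given here. On the share of the level kept, Ptgs2 stood with Egr1 and Fos instead. The share kept counts only sites still listed in all 4 libraries, which the loss itself affects, and for Ptgs2 these are 2 of 10 shared sites. On those sites Ptgs2, with the lowest coverage change, kept more of its level than 87.9% of genes. Ccn1 and Thbs1, next in coverage, kept more than 51.8% and 25.1% of genes. Egr1 and Fos, with coverage at or above that of siNC, kept more than 91.1% and 84.8%. Across the 5642 genes with both values, the coverage change and the level change in log2 odds correlated weakly and negatively (Pearson's r = -0.16, Spearman's rho = -0.16). Genes whose level fell more thus tended slightly to a higher coverage change. Ptgs2, Ccn1 and Thbs1 set against Egr1 and Fos ran the other way on that scale. The correlation is a description across genes of the same libraries, and genes are not replicates.

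**Figure D3:**
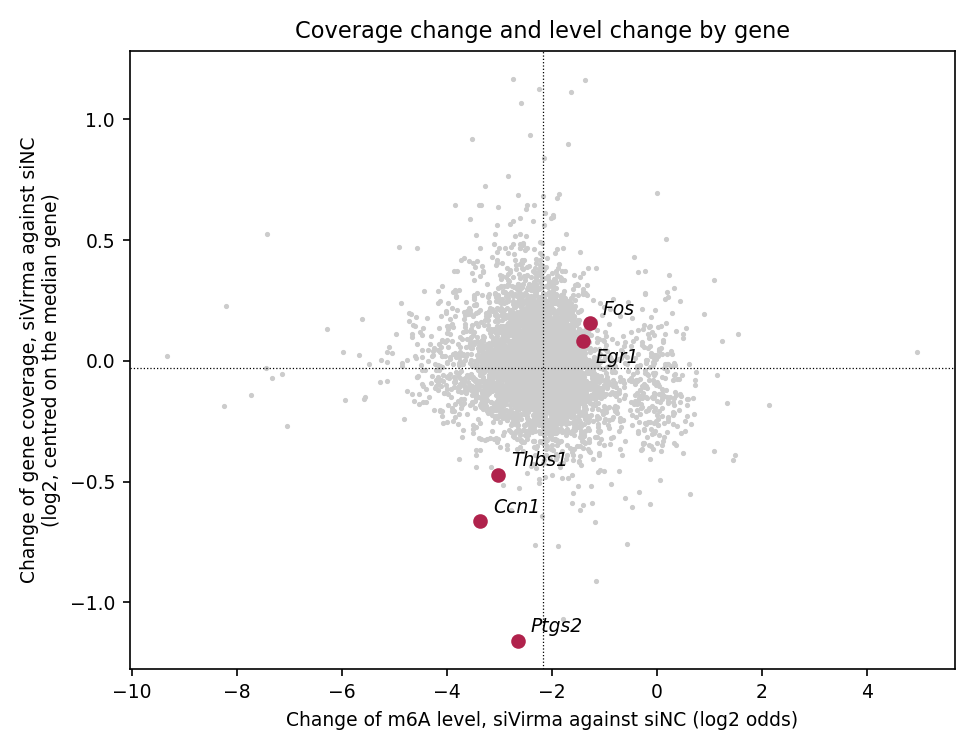
Change of gene coverage (log2, centred on the median gene) against change of the gene's m6A level (log2 odds) for 5642 genes in grey, siVirma against siNC, with the 5 members that have both values named. Dotted lines are the medians of the genes shown. Ptgs2, Ccn1 and Thbs1 sit at the bottom edge and left of the median level change, and Egr1 and Fos sit right of it near a coverage change of 0.

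The other genes of the same pathways were read from 4 lists: immediate early and serum response genes, cytoskeletal targets of SRF and its MRTF partners, YAP-TEAD targets, and the regulators of both routes. They hold 99 genes without the members, and 57 had coverage in all 4 libraries. By limma at an adjusted p of 0.05, coverage of 5 genes rose, that of 10 fell and that of 42 passed in neither direction. Over all 6787 genes, 9.15% rose and 12.4% fell. The median change of the 57 genes was -0.06 against -0.04 over all genes.

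Among immediate early genes, 4 of 20 rose and 6 fell. Btg2, which encodes an antiproliferative cofactor of mRNA deadenylation, went from 3.91 and 4.04 times the median gene to 5.89 and 5.56 (log2 change 0.53, SE 0.05, limma adjusted p = 0.00206). Arc, Jund and Klf10 rose by 0.21, 0.24 and 0.17 (limma adjusted p of 0.0373, 0.0417 and 0.0464). The orphan nuclear receptor gene Nr4a1 went from 1.58 and 1.59 to 1.21 and 1.13 (log2 change -0.44, limma adjusted p = 0.00348). Hbegf, an EGF receptor ligand, went from 1.13 and 1.21 to 0.839 and 0.892 (log2 change -0.43, limma adjusted p = 0.00531). Gdf15, a stress-induced cytokine, went from 0.613 and 0.606 to 0.459 and 0.452 (log2 change -0.42, limma adjusted p = 0.00283). Fosl2, Ier3 and Csrnp1 changed by -0.22, -0.22 and -0.17 (limma adjusted p of 0.0462, 0.0489 and 0.0408). Like Jund and Klf10, they lay close to the threshold of 0.05, and the alternatives below were not followed for them singly. The AP-1 genes Jun, Junb and Fosb did not pass, at 0.16, -0.07 and -0.05. The list therefore held genes that moved each way, as the members did, and its median was -0.11.

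Of 14 measured YAP-TEAD targets, 1 rose and 3 fell. Igfbp3, an IGF binding protein, went from 0.768 and 0.831 times the median gene to 1.05 and 1.01 (log2 change 0.37, limma adjusted p = 0.00781). Gadd45a, a growth arrest and DNA damage gene, went from 0.867 and 0.819 to 0.646 and 0.677 (log2 change -0.35, limma adjusted p = 0.00791). Nt5e and Dock5 changed by -0.22 and -0.20. The direct targets Ajuba and Amotl2 had changes of 0.15 and -0.08 and did not pass. Of the regulators, 1 of 16 passed, Mob1a, an activator of the LATS kinases, at -0.21 (limma adjusted p = 0.0246). Srf, with a fold change of 0.997, and Yap1 and Tead1, with log2 changes of 0.11 and 0.03, did not pass. None of the 7 measured cytoskeletal targets passed, Actb, Actg1 and Flna having changes of -0.06, 0.09 and 0.15, and Flna alone had an unadjusted limma p under 0.05 (0.029).

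Leaving out libraries or changing the scaling ended some of these calls. Without siVirma replicate 1, none of the 57 genes passed in either direction (limma adjusted p of 0.0568 to 0.132 for the 10 named above by lowest p), and over all genes 15 rose and 10 fell. That fit has 1 siVirma library, which is assumed to vary like the siNC pair, and the changes of Btg2, Nr4a1 and Gdf15 in it were 0.49, -0.48 and -0.43. Leaving out either siNC library ended the calls of Arc, Nt5e, Dock5 and Mob1a (limma adjusted p of 0.0849 to 0.203). On A and G reads, edgeR gave no call for Arc, Gadd45a and Mob1a (adjusted p of 0.158, 0.263 and 0.636). Gdf15, Hbegf and Dock5 had no edgeR value on these reads. DESeq2 gave no call for Arc (adjusted p of 0.474) and kept those of Btg2 and Nr4a1 (adjusted p of 2.53e-07 and 0.000208). The other named genes had no adjusted p by DESeq2, so their calls were not checked there. Without centring on the median gene, none of the 57 fell, and the calls of Gdf15, Nr4a1, Hbegf, Gadd45a, Nt5e, Dock5 and Mob1a ended.

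The m6A level fell in nearly all of these genes. By edgeR's quasi-likelihood test on A and G reads, it fell in 44 of 45 measured pathway genes and rose in none, where over all 5642 genes 93.8% fell and 0.177% rose. The exception was Fosb (log2 odds change -1.29, edgeR adjusted p = 0.0568). The lowest p-values were those of Actg1, which went from 0.83 ± 0.000931 to 0.361 ± 0.0162 (SD, n = 2, edgeR adjusted p = 1.11e-35), and Birc5, from 0.598 ± 0.00523 to 0.22 ± 0.00963 (SD, n = 2, edgeR adjusted p = 3.53e-26). The size of these p-values depends on the model. With limma on the log2 odds of each library, the adjusted p was 0.000577 for Actg1 and for Birc5. Btg2 kept 52% of its level and Ier2 62.9%, Yap1 41.8% and Tead1 52.7%, Ajuba 41.1% and Flna 46.7%. The immediate early genes kept a median of 54.2%, the cytoskeletal targets 45.1%, the YAP-TEAD targets 46% and the regulators 43%, against 44.9% over all genes. The differences between these lists were not tested. Jun, an intronless partner of Fos, kept 63.8% and Junb 76.9%.

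**Figure D4:**
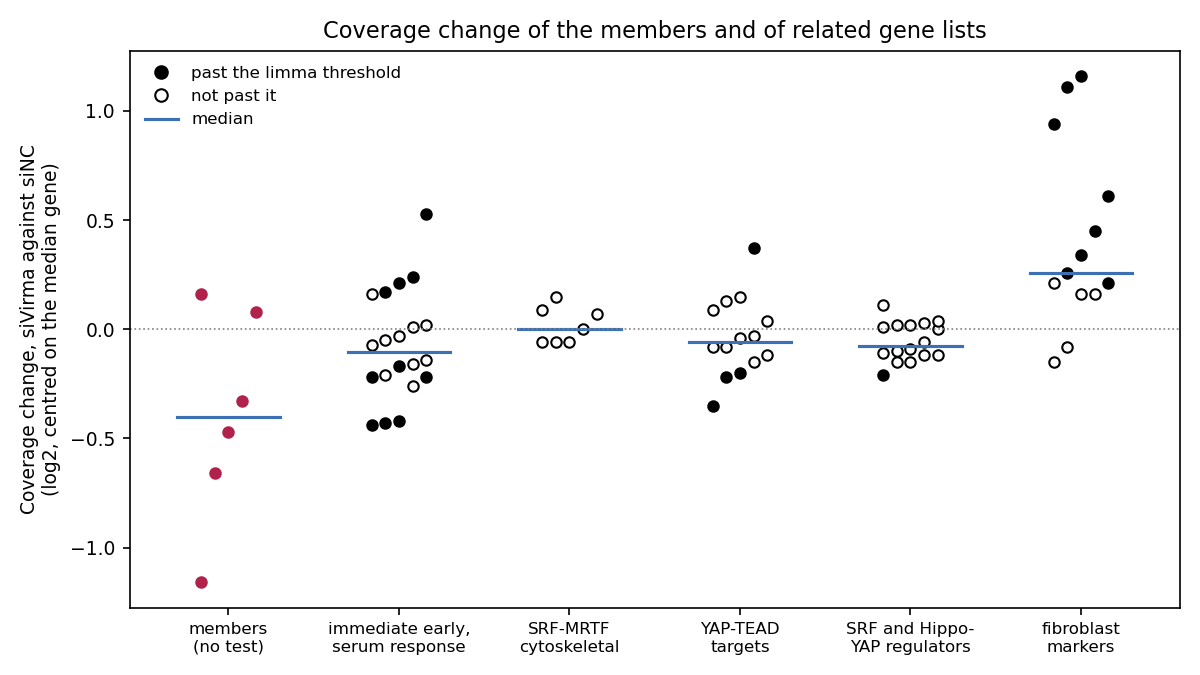
Change of gene coverage (log2, siVirma against siNC, centred on the median gene) of the 6 members, which carry no test, and of the measured genes of 4 pathway lists and of fibroblast markers. Filled circles passed the limma threshold, open ones did not, and the blue line is the median. The members' median lies at -0.40 and those of the pathway lists between -0.11 and 0.00. Of 13 fibroblast markers 8 passed upwards, against 9.15% of all genes.

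Several members are also abundant in fibroblasts, which some cultures hold as feeder cells, so fibroblast markers were read beside them. Of 23 markers, 21 had a listed site and 13 had coverage in all 4 libraries. Of those 13, 8 rose and none fell, where over all 6787 genes 9.15% rose and 12.4% fell. Their summed coverage was 23.8 and 23.5 times the median gene in siNC and 28.1 and 26.5 in siVirma. The collagen genes Col6a3 and Col6a1 rose the most, with log2 changes of 1.16 and 1.11. Dcn and Fap had no listed site, and Sparc and Pdgfra had changes of -0.15 and -0.08. The other 3, Fbn1, Twist1 and Thy1, did not pass, at 0.16, 0.16 and 0.21. The part of fibroblast RNA in the members' values was not tested. Of 12 measured naive pluripotency genes 2 fell, and of 11 genes of the 2-cell stage program 5 fell, beside 12.4% over all genes. The medians of these 2 lists were -0.10 and -0.20. The sums of these 2 lists were 51.6 and 51.9, then 50.9 and 47.2, for the first, and 13.4 and 13.5, then 11.5 and 12.1, for the second.

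The genes most alike to the 5 fully measured members were sought by distance over the coverage change, the level change and the share of sites in neither siVirma list, each divided by its SD over genes. The reference was the median of those members, a coverage change of -0.47, a level change of -0.333 and 50% of sites. Of 4469 genes, the nearest were Slc35g1 (distance 0.534), Gm2381 (0.544), Parvb (0.659), Tmeff1 (0.684) and Prkci (0.796). Their coverage changes ran from -0.50 for Slc35g1 to -0.36 for Prkci. The members themselves lay farther off, from 1.53 for Thbs1 to 4.11 for Ptgs2. Egr1 lay at 4 and Fos at 3.96.

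The EPSC table comes from another contrast than the one the members were selected on, although its results were known when they were chosen. It held 20 sites within the spans of 4 members, 18 of them at positions listed in TBLC. Ptgs2 and Thbs1 had no row, Ccn1 had 5, Ccn2 had 2, Egr1 had 8 and Fos had 5. The sites were thinly read, with 356 A and G reads in sgCtrl and 523 in sgGata6 over all 20. Intervals below are 95% Wilson intervals and cover counting error only. At the high Ccn1 site chr3:145353425 the level was 0.9 in sgCtrl (0.699 to 0.972) and 0.714 in sgGata6 (0.5 to 0.862), beside 0.892 and 0.853 in siNC TBLC. At the Egr1 site chr18:34997069 it was 1 in sgCtrl (0.722 to 1) and 0.955 in sgGata6 (0.782 to 0.992). At the Fos site chr12:85522967 it was 0.25 in sgCtrl (0.133 to 0.421) and 0.0526 in sgGata6 (0.00935 to 0.246), with 32 and 19 reads, where siNC TBLC had 0.648 and 0.55. At the Ccn2 site chr10:24473553 the order was the opposite, 0.0833 in sgCtrl (0.0149 to 0.354, 12 reads) and 0.571 in sgGata6 (0.365 to 0.755, 21 reads). The Egr1 site chr18:34997770 was also higher in sgGata6, at 0.692 (0.536 to 0.814, 39 reads) against 0.333 in sgCtrl (0.121 to 0.646, 9 reads). These are some of the 20 sites, and the others went each way. TBLC and EPSC come from separate experiments, and no test was made between them.

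Only 4 of the 20 sites had at least 20 reads in both EPSC groups, 3 of them in Egr1 and 1 in Ccn1, and none passed Fisher's exact test on the pooled reads after adjustment. Over all 10185 sites tested, 0.275% passed, while 1197 had an unadjusted p under 0.05. Among the 4 sites 1 had, the Egr1 site chr18:34997234. There 21 of 38 reads were A in sgCtrl (a level of 0.553) and 22 of 65 in sgGata6 (0.338), with an exact p of 0.04 and an adjusted p of 0.381. For the others the exact p was 0.238 for Ccn1, and 0.124 and 0.654 for Egr1. The last of these, chr18:34997430, lies within the span of Egr1 but was in no TBLC list. A test on pooled reads compares these pools and not the conditions. The 4 sites had 20 to 65 reads per group, and a p that misses the threshold does not show that their levels were alike.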

How the data were processed

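Per the labels' protocols, GLORI libraries came from purified mRNA. Build mm39 is from the submitters' processing notes. The sources used here name no aligner or site caller. The deposited TBLC lists, 1 per library, give counts of A+G and of A reads per site, and the level as a fraction, which matched A over A+G within 5e-06. The authors' p-value of each site was used only to describe the lists. The deposited gene coverage is a signal and the conversion rate a fraction, both 1 value per gene. The deposited EPSC counts of A reads, and the coverage of each site in A+G reads, are pooled per group, so Fisher's exact test took the place of edgeR on single libraries.

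Members and gene lists were chosen with earlier results of these data known. Coverage of genes listed in all 4 libraries was centred on the median gene and fitted with limma 3.58.1. Levels were fitted with edgeR 4.0.16 in R 4.3.3, with 1 coefficient for each library and 1 for siVirma on A reads, over sites with at least 20 reads. The p-values were adjusted by Benjamini-Hochberg over all genes or sites at 0.05. limma offset variances of 0. DESeq2 1.42.0, other scalings, minimums, a replicate block and leaving out each library were alternatives. Scripts were tested on simulated data. Genes named from the lists were up to 5 with the lowest p for coverage and 2 for level in each pathway list, and others named beside them were chosen after their values were seen. Exons, introns and UTRs are left out, since no mm39 annotation was used. Sites with no gene name (6.14% to 7.7% of a list) entered no gene value. Python 3.11.15, numpy 2.4.6, pandas 2.3.3, scipy 1.17.1 and matplotlib 3.10.9 made the summaries and plots.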

Additional observations from a re-analysis of the deposited data

How the results depend on the processing

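All 64 alternative values of the members' coverage changes and all 40 of their level changes had the direction of the values given above. They come from the libraries that the members were picked on and do not test that direction. Over all genes, 621 rose in coverage and 841 fell. DESeq2 on A+G reads gave 169 and 118, edgeR on the same reads 457 lower, no centring 30 lower and the replicate block 1306 lower. Leaving out 1 library gave 15 to 580 higher and 10 to 785 lower, with 304 and 450 without siNC replicate 2. Of the pathway genes, 5 rose and 10 fell. These numbers were 8 higher by quantile normalization, 8 and 4 by edgeR, 1 and 1 by DESeq2 and 0 lower with no centring, and leaving out 1 library gave 0 to 5 and 0 to 8. The fibroblast markers that rose were 8, or 3 by DESeq2 and 3 to 9 without 1 library. With at least 50 reads, where fewer genes are tested, 3108 genes and 24 pathway genes fell in level and 3 genes rose. Without 1 library 4 to 9 genes rose. The share of member sites in neither siVirma list was 42.2%, 0% from a siNC level of 0.5 and 57.3% of sites in either siNC list. For sites in either siNC list no share over all sites was taken, so 57.3% has no value beside it. EPSC sites passing were 28 of 10185, and 85 of 2756 at 50 reads. Of 100 alternative values for the named pathway genes' coverage, 32 lost the call and none changed direction. The causes were not tested.

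The replicate block asks whether same-numbered libraries pair. Their deviations correlated at 0.138 for coverage and -0.0131 for level over 2 pairs, so the numbers were not taken as pairs. Groups of 2 libraries limit every p-value here, and sites under the list minimums have no value.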
